A study of Mus musculus with 6 samples.

Results

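The Schlafen genes Slfn1, Slfn2, Slfn4, Slfn5, Slfn8 and Slfn9 and the PARP genes Parp9, Parp10, Parp12 and Parp14 were taken by gene symbol from the table of raw read counts, which gave 10 genes of 52550, with 1 row for each. The counts come from RNA-seq of mouse bone marrow-derived macrophages (BMDMs) that had been cultured with bone marrow stem cells (BMSCs) and carried, or lacked, MSR1, a scavenger receptor of macrophages. There were 3 libraries from MSR1 KO macrophages and 3 from MSR1 WT macrophages, all from C57BL/6 mice. In both groups the macrophages had been grown for 7 days with 25 ng/ml M-CSF, the growth factor that turns marrow cells into macrophages, and then shared medium with BMSCs across a transwell membrane for 48 h. The age of the mice is not given. The study calls the libraries biological replicates, but no label says whether those of a genotype came from separate animals, and the p-values measure the spread between these libraries, which may be technical in part. The knockout was carried by the whole animal rather than induced in macrophages.

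Schlafen genes and the antiviral PARPs belong to the set of genes that macrophages switch on when type I or type II interferon binds its receptor and the STAT and IRF factors enter the nucleus. Schlafen proteins share a core domain that binds RNA, and the longer members also carry a helicase-like part. PARP enzymes use NAD+ to attach ADP-ribose to proteins, and the antiviral members attach single units or read them, whereas PARP1 and the tankyrases build chains.

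The motif through which interferon-activated factors are known to bind the promoters of their target genes has GAAA, any 2 bases and GAAA as its core, and this was looked for on both strands of the promoter windows of RefSeq (build GRCm38.p6), which run from 250 bases before to 50 bases after a gene's start. Windows were found for 7 of the 10 members, the 6 Schlafen genes and Parp12, and not for Parp9, Parp10 and Parp14. The motif was in the windows of Slfn5, Slfn8 and Slfn9, and 1079 of 27025 genes with a window (3.99%), or 1131 of 32851 windows (3.44%), held it. Among the other Schlafen and PARP genes with a window, Parp11 held it once and Parp4 held it at 2 overlapping places, -150 and -144. The matches of the 3 members, of Parp11 and the farther one of Parp4 are shown on the strand of the gene with 25 bases on either side, since these genes of the families carry it in their windows. Capitals mark the match, which reads in that form or as its reverse complement:
Slfn5, chr11:82951922-82951981, plus strand, match at -155 from the start: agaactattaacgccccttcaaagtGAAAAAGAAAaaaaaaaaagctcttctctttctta
Slfn8, chr11:83020824-83020883, minus strand, match at -48 from the start: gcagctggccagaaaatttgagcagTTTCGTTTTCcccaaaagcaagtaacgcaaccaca
Slfn9, chr11:82991841-82991900, minus strand, match at -45 from the start: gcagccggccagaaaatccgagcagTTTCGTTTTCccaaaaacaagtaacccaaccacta
Parp11, chr6:127446771-127446830, plus strand, match at -44 from the start: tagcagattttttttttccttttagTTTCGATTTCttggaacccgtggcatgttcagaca
Parp4, chr14:56575444-56575503, plus strand, match at -150 from the start: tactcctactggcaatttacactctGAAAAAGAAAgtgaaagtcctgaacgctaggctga
The matched letters of Slfn8 and Slfn9 were the same. The Slfn5 match lay in a run rich in A. Its offset is counted from the RefSeq start, whose window runs from 82951852 to 82952151. The GENCODE start of Slfn5 is 82951349, upstream of that window, so by GENCODE the match lies inside the gene. Slfn8 had a second RefSeq start from which the same match lay at -136. The motif TTCNNNGAA, bound by STAT dimers, was in no window of the 7 members, and 9.55% of all genes with a window held it. A match is a run of letters and not a measured binding site, and a window without a match says nothing of sites elsewhere.

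Total counts were 36143518 to 47417448 per library, and the lowest count of any member in any library was 565, so counting error was small beside the differences between libraries. Msr1 counts were 2118, 1825 and 2000 in the KO libraries and 7543, 9163 and 9219 in the WT libraries, a log2 fold change of -2.02 (SE 0.135, edgeR adjusted p = 0.0012), in the direction of the labels. Levels below are CPM, that is counts relative to the library's total after TMM scaling, and fold changes are MSR1 KO over MSR1 WT on the log2 scale from edgeR's quasi-likelihood test, with p-values adjusted by Benjamini-Hochberg over 16402 tested genes.

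Every member was higher in MSR1 KO macrophages than in MSR1 WT macrophages, and for 10 of 10 each KO library lay above each WT library, which was the case for 12.1% of all tested genes. With 3 libraries a group, the exact permutation test of a single gene cannot go below p = 0.1, and each member had p = 0.1 (two-sided). By edgeR's quasi-likelihood test, 8 of 10 rose at an adjusted p under 0.05 and 0 fell, where 2.25% of tested genes rose and 2.66% fell, and by DESeq2 10 of 10 rose, where 4.39% of tested genes rose and 5.17% fell. At an unadjusted p under 0.05, edgeR's test had 10 of 10 members higher and 0 lower, where 8.65% of tested genes were higher and 10.2% lower. By the definition of differential expression used in the study, a fold change over 1.5 with an unadjusted p under 0.05, 9 of 10 were higher against 3.59% of tested genes. The median log2 fold change of the 10 members was 0.70, beside -0.002 over all tested genes, and the members lay between the 87.7th percentile (Slfn9) and the 99.6th percentile (Slfn4) of all fold changes. In bulk RNA, a larger number of cells of a type and more RNA per cell cannot be told apart.

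**Figure D1:**
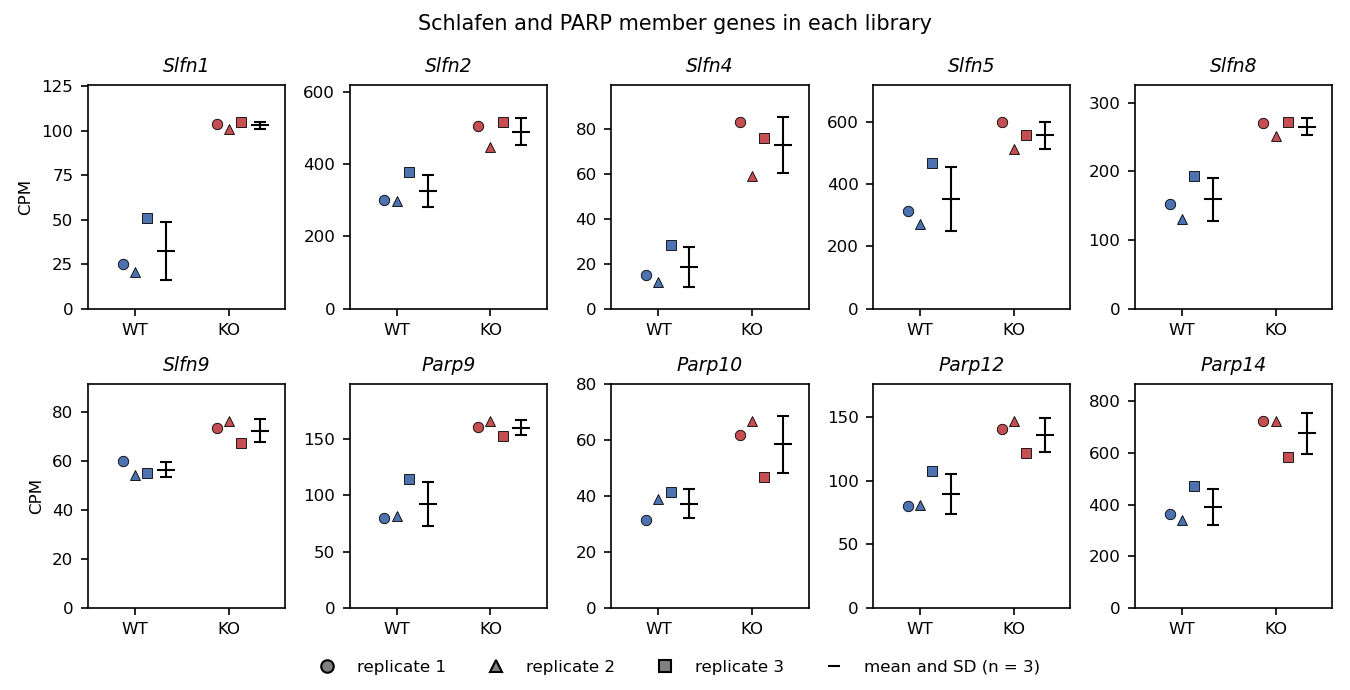
Level of each member in the 6 libraries, in CPM on a linear axis from 0, with replicates 1, 2 and 3 as circles, triangles and squares, and the mean and SD (n = 3) beside them. In each of the 10 panels the 3 KO points lie above the 3 WT points, and the gap is widest in proportion for Slfn1 (20.7 to 51.0 CPM in WT, 101 to 105 in KO) and Slfn4 (11.9 to 28.5 in WT, 59.1 to 83.0 in KO).

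The number of calls rested on single libraries. Without KO replicate 1 or without WT replicate 1, edgeR's quasi-likelihood test called 0 members at an adjusted p under 0.05, without WT replicate 2 it called 1, without KO replicate 2 it called 2, and without KO replicate 3 it called 3. The share of all tested genes called higher also fell in these fits, to 0.25% without KO replicate 1, 0.107% without WT replicate 1, 0.369% without WT replicate 2, 0.574% without KO replicate 2 and 1.09% without KO replicate 3. Without WT replicate 3, 8 members were called against 2.42% of genes. In each of the 6 fits all 10 members were higher at an unadjusted p under 0.05, the largest being 0.0269, where 6.37% to 8.67% of all tested genes were higher.

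The 6 Schlafen members cluster on chromosome 11 (GRCm38), between the GENCODE start of Slfn5 at 82951349 and the end of Slfn4 at 83190216. Slfn5, Slfn2, Slfn1 and Slfn4 lie on the plus strand, and Slfn9 and Slfn8 on the minus strand. By edgeR's test 5 of the 6 rose, and Slfn5 did not pass.

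Slfn4, an interferon-induced Schlafen gene of myeloid cells, had counts of 2980, 2351 and 3530 in the KO libraries and 621, 565 and 1178 in the WT libraries. WT replicate 3 was the highest of its group, and the groups did not overlap. Its level was 72.7 ± 12.3 CPM in KO and 18.5 ± 8.82 CPM in WT (mean ± SD over 3 libraries each), and it rose by 1.98 on the log2 scale (SE 0.302, 95% CI 1.28 to 2.67, edgeR adjusted p = 0.018).

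Slfn1, one of the short Schlafen genes, first described as a brake on thymocyte growth, had counts of 3740, 4024 and 4892 in KO and 1044, 983 and 2108 in WT. The KO libraries were close to each other in CPM (104, 101 and 105), while WT replicate 3, at 51.0 CPM, was well above the other WT libraries at 25.3 and 20.7 CPM. The means were 103 ± 2.16 and 32.4 ± 16.3 CPM, and Slfn1 rose by 1.68 on the log2 scale (SE 0.295, 95% CI 1.00 to 2.36, edgeR adjusted p = 0.024).

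Slfn2, the other short member, known for keeping T cells quiescent, had counts of 18165, 17799 and 24050 in KO and 12430, 14196 and 15578 in WT. In CPM, KO replicate 2 (447) was the lowest of its group and WT replicate 3 (377) the highest of its own, and a gap stayed between them. It rose by 0.59 on the log2 scale (SE 0.106, 95% CI 0.34 to 0.83, edgeR adjusted p = 0.026), from 326 ± 44.3 to 490 ± 37.7 CPM.

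Among the long members with the helicase-like part, Slfn8 had counts of 9712, 9989 and 12661 in KO and 6279, 6202 and 7956 in WT. Its KO libraries ran from 251 to 272 CPM and its WT libraries from 131 to 193 CPM, without overlap. The rise was 0.74 on the log2 scale (SE 0.131, 95% CI 0.44 to 1.04, edgeR adjusted p = 0.025).

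Slfn5, a nuclear member, had counts of 21536, 20404 and 25995 in KO and 12948, 12890 and 19301 in WT. WT replicate 3, at 467 CPM, came near the lowest KO library at 513 CPM, while the other WT libraries were at 314 and 272 CPM. The log2 fold change was 0.67 (SE 0.182, 95% CI 0.25 to 1.08) and did not pass after adjustment (edgeR adjusted p = 0.082).

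Slfn9, a close relative of Slfn8, had counts of 2639, 3037 and 3128 in KO and 2470, 2577 and 2272 in WT. The groups were close without overlapping, with 67.3 to 76.3 CPM in KO and 54.3 to 59.9 CPM in WT. It had the smallest change of the 10 members, 0.36 on the log2 scale (SE 0.0824, 95% CI 0.17 to 0.55, edgeR adjusted p = 0.048), a fold of 1.28 that is under the 1.5 of the study's definition.

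Neighbouring Schlafen genes share sequence, so that reads could be divided among them. Of the exon sequence in runs of 50 bases, 14.6% of Slfn8 was found in at least 1 other gene, mostly Slfn10-ps and Slfn9, and the share was 11.9% for Slfn9, 11.3% for Slfn4, 11.1% for Slfn5, 4.3% for Slfn2 and 0.6% for Slfn1. Of the 700 shared runs of Slfn5, 467 were shared with its antisense gene Slfn5os, which overlaps 8.8% of the exon bases of Slfn5. How reads that match several genes were counted, and whether strand was used, is not given in the sources used here, and the values of Slfn8, Slfn9, Slfn4 and Slfn5 are uncertain to that extent. The same limit holds for Slfn3 (16.0% shared, 7.4% with Slfn4) and Slfn10-ps (19.7%), which are outside the members.

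Of the remaining genes of the family, Slfn3, next to Slfn4, had counts of 912, 791 and 896 in KO and 509, 605 and 652 in WT and rose by 0.66 on the log2 scale (SE 0.15, edgeR adjusted p = 0.048). The pseudogene Slfn10-ps had 889, 886 and 887 in KO and 535, 742 and 850 in WT, and its log2 fold change of 0.43 did not pass (edgeR adjusted p = 0.24). Slfn5os was counted 1355, 215 and 247 times in KO and 670, 135 and 201 times in WT. Replicate 1 of each genotype was thus far above the other libraries of that genotype, the groups overlapped, and the log2 fold change of 1.01 had an SE of 0.87 (edgeR adjusted p = 0.6). Slfn14 had 5 reads in KO replicate 1 and 0 in the other libraries, and Slfnl1 had 0 in all 6. Of the 3 other Schlafen genes that could be tested, 1 rose and 0 fell by edgeR (2 higher and 0 lower at an unadjusted p under 0.05, and 1 higher and 0 lower by DESeq2).

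To compare levels between genes, counts were divided by exon length and expressed as TPM, the length-corrected counterpart of CPM. On this scale the order in KO was Slfn2 (919 TPM), Slfn5 (275), Slfn8 (202), Slfn1 (173), Slfn4 (57.2) and Slfn9 (38.0). In WT the order was Slfn2 (632 TPM), Slfn5 (179), Slfn8 (125), Slfn1 (56.1), Slfn9 (30.5) and Slfn4 (15.1), so Slfn4 and Slfn9 had changed places. The summed level of the 6 Schlafen members was 1749, 1581 and 1663 TPM in the KO libraries and 936, 902 and 1275 TPM in the WT libraries, or 1665 ± 84.2 and 1038 ± 206 TPM.

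**Figure D2:**
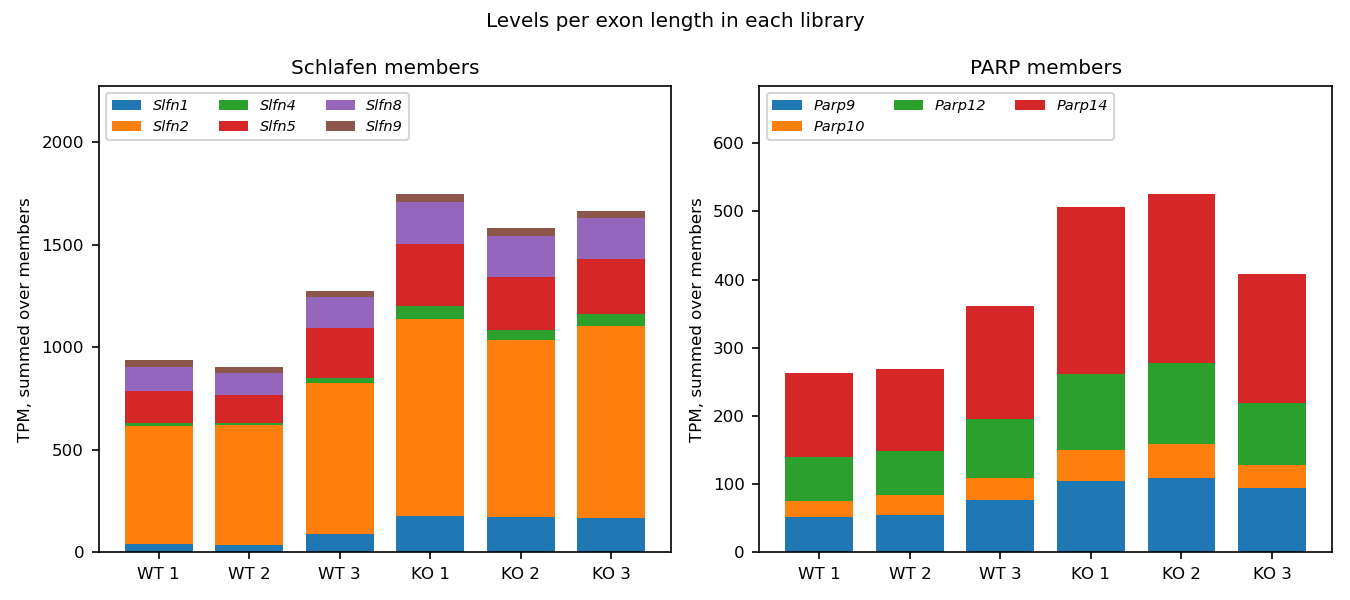
Level per exon length in TPM for each library, stacked over the 6 Schlafen members on the left and the 4 PARP members on the right, on linear axes from 0. The Schlafen stacks reach 902 to 1275 TPM in WT and 1581 to 1749 TPM in KO, the PARP stacks 263 to 361 and 408 to 527 TPM, and Slfn2 and Parp14 are the largest blocks of their families.

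The Schlafen members differed in the size of their change. Slfn2 made up 55.2% of the summed Schlafen TPM in KO and 61.3% in WT, Slfn1 10.4% and 5.20%, and Slfn4 3.42% and 1.40%. Slfn5 (16.5% and 17.0%) and Slfn8 (12.1% and 12.0%) kept much the same share, and Slfn9 had 2.29% and 3.01%. When the log2 CPM of each member was set against the mean of the other 5, the KO value exceeded the WT value by 1.22 for Slfn4 and by 0.89 for Slfn1, and the difference was -0.82 for Slfn9, -0.54 for Slfn2, -0.41 for Slfn5 and -0.34 for Slfn8. For all 6 the KO and WT libraries were separate on this measure, each with p = 0.1 by a two-sided exact permutation test, the smallest that 3 against 3 allows, and 0.143 after Benjamini-Hochberg adjustment over 10 such tests. By this permutation test the within-family comparison therefore cannot pass the adjusted threshold used above, whatever the size of the difference. That limit belongs to the permutation test, and the within-family differences were not tested by a model of their spread.

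The 4 PARP members lie at 3 places in the genome, Parp12 on chromosome 6, Parp10 on chromosome 15, and Parp14 and Parp9 on chromosome 16. By edgeR's test Parp9, Parp12 and Parp14 rose, and Parp10 did not pass. The fold changes of the 4 lay between 0.61 and 0.80 on the log2 scale.

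Parp14, a large PARP with macrodomains that was first described as a cofactor of STAT6, had counts of 25918, 28802 and 27156 in KO and 14979, 16183 and 19445 in WT. Among the KO libraries replicate 3 was the lowest at 584 CPM, and among the WT libraries replicate 3 was the highest at 471 CPM, still below it. It rose by 0.79 on the log2 scale (SE 0.136, 95% CI 0.48 to 1.10, edgeR adjusted p = 0.023), from 392 ± 69.3 to 676 ± 79.8 CPM.

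Parp9 works as a complex with the ubiquitin ligase DTX3L, whose gene lies head to head with it. Parp9 counts were 5767, 6618 and 7110 in KO and 3306, 3863 and 4744 in WT, and Dtx3l counts were 10763, 13220 and 11338 in KO and 6509, 6937 and 8310 in WT. For both genes the lowest KO library was above the highest WT library. The log2 fold changes were 0.80 for Parp9 (SE 0.138, 95% CI 0.48 to 1.11, edgeR adjusted p = 0.024) and 0.79 for Dtx3l (SE 0.146, 95% CI 0.46 to 1.13, edgeR adjusted p = 0.027). The genes overlap on opposite strands over 9.4% of the exon bases of Parp9, so part of their reads cannot be told apart if strand was not used.

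Parp12, a zinc-finger PARP that attaches single ADP-ribose units, had counts of 5067, 5844 and 5653 in KO and 3316, 3831 and 4450 in WT. KO libraries ran from 122 to 147 CPM and WT libraries from 80.4 to 108 CPM. The rise was 0.61 on the log2 scale (SE 0.13, 95% CI 0.31 to 0.91, edgeR adjusted p = 0.04).

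Parp10, also a mono-ADP-ribosyltransferase, had counts of 2216, 2658 and 2180 in KO and 1301, 1842 and 1716 in WT. KO replicate 3, at 46.9 CPM, was nearer to the highest WT library at 41.5 CPM than to the other KO libraries at 61.7 and 66.8 CPM. The log2 fold change was 0.65 (SE 0.152, 95% CI 0.30 to 1.00) and missed the threshold (edgeR adjusted p = 0.051).

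In TPM the PARP order was the same in both genotypes, with Parp14 at 228 in KO and 136 in WT, Parp12 at 107 and 72.4, Parp9 at 103 and 61.1, and Parp10 at 42.9 and 28.2. Parp12 and Parp9 were close in both genotypes. The sum of the 4 was 506, 527 and 408 TPM in KO and 263, 268 and 361 TPM in WT (480 ± 63.4 and 297 ± 55.1 TPM). Parp14 made up 47.3% of the sum in KO and 45.7% in WT. Against the mean of the other 3, the change of each PARP was between -0.13 and 0.13 on the log2 scale, and the libraries were separate for Parp12 alone (exact permutation p = 0.1, adjusted 0.143).

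Of the 12 other PARP genes tested, 1 rose and 0 fell by edgeR (4 higher and 0 lower at an unadjusted p under 0.05, and 2 higher and 0 lower by DESeq2), with a median log2 fold change of 0.01. The gene that rose was Parp11, a further mono-ADP-ribosyltransferase, with counts of 2371, 2989 and 2424 in KO and 1627, 1665 and 1789 in WT and a log2 fold change of 0.71 (SE 0.141, edgeR adjusted p = 0.031). Its libraries did not overlap, and its change was of the size seen in the PARP members. Zc3hav1, the antiviral zinc-finger protein ZAP, which has lost its enzyme activity, was at 226 ± 15.7 CPM in KO and 183 ± 16.0 CPM in WT, a log2 fold change of 0.30 that did not pass (edgeR adjusted p = 0.096). The chain-building enzymes had log2 fold changes of -0.12 (Parp1), 0.20 (Parp2), -0.12 (Tnks) and -0.05 (Tnks2), and none of the 4 passed. The 95% interval of Parp2 was 0.02 to 0.38, with each KO library above each WT library (edgeR adjusted p = 0.21), and the intervals of Parp1, Tnks and Tnks2 included 0. Parp4, whose window held the motif at 2 overlapping places, had a log2 fold change of 0.01 (95% CI -0.19 to 0.21, edgeR adjusted p = 0.97). Tiparp, the PARP induced by the aryl hydrocarbon receptor, had -0.01 (95% CI -0.20 to 0.18).

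**Figure D3:**
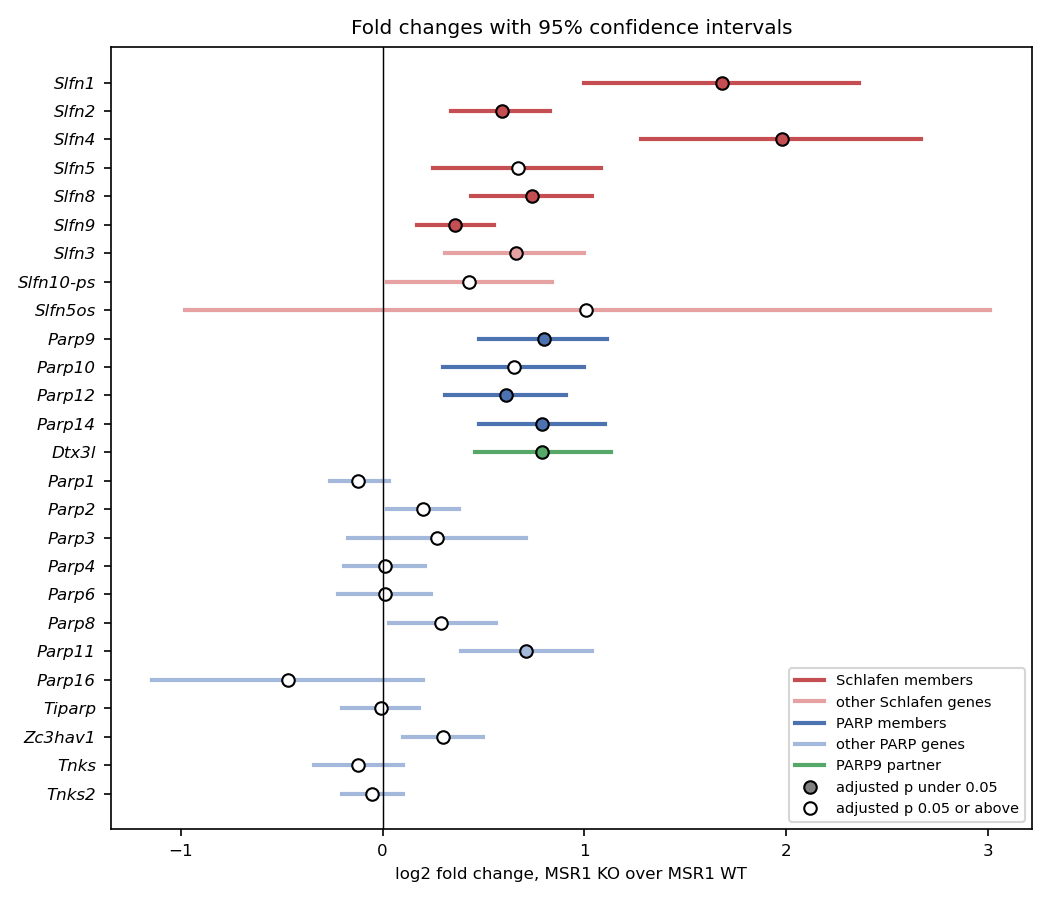
Log2 fold change of MSR1 KO over MSR1 WT with its 95% confidence interval for the members, the other Schlafen and PARP genes that could be tested, and Dtx3l. Filled points passed at an adjusted p under 0.05. Slfn4 (1.98) and Slfn1 (1.68) lie farthest right, the 4 PARP members, Dtx3l and Parp11 lie between 0.61 and 0.80, and the interval of Slfn5os runs from -0.98 to 3.01.

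The genes that remove or read ADP-ribose and those that supply NAD+ were set beside the members. Of 7 partners and erasers of ADP-ribose tested, Dtx3l was the only one that rose and 0 fell by edgeR (3 higher and 0 lower at an unadjusted p under 0.05, and 1 higher and 0 lower by DESeq2). Parg, which degrades ADP-ribose chains, had a log2 fold change of -0.04 (95% CI -0.24 to 0.17), and Adprh, which removes single units from arginine, had 0.19 (0.01 to 0.38, edgeR adjusted p = 0.25). Of 11 genes of NAD+ supply and use, 0 passed edgeR's adjusted threshold (3 were higher and 0 lower at an unadjusted p under 0.05, and 2 were higher and 0 lower by DESeq2). Nampt, the rate-limiting enzyme of NAD+ salvage, was at 218 ± 19.1 CPM in KO and 168 ± 16.5 CPM in WT (log2 fold change 0.37, edgeR adjusted p = 0.072), and Cd38, which consumes NAD+, was at 124 ± 17.8 and 124 ± 5.0 CPM.

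The interferon pathway upstream of the members was read in the same libraries. Of 10 interferon genes looked for, none had enough reads for a test, and 7 were at 0 in all 6 libraries. Ifnb1 had 8, 6 and 0 reads in KO and 0, 0 and 4 in WT, Ifng had 4 reads in WT replicate 1 alone, and Ifne had 3 in KO replicate 1 alone. At these counts no difference was detectable, and the count of 0 allows up to 3 reads in a library. Of the 7 receptor and kinase genes 0 passed edgeR's adjusted threshold (2 higher and 1 lower at an unadjusted p under 0.05, and 2 higher and 0 lower by DESeq2). Ifnar2, a chain of the type I receptor, had 0.24 (SE 0.0625, edgeR adjusted p = 0.072), and Ifngr1, a chain of the type II receptor, had 0.17 (SE 0.0903, edgeR adjusted p = 0.38).

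Of the 11 STAT and IRF genes 6 rose and 0 fell by edgeR (7 higher and 0 lower at an unadjusted p under 0.05, and 7 higher and 0 lower by DESeq2). Among those that rose, Stat2 had 9932, 11844 and 10474 counts in KO and 3997, 4108 and 6155 in WT, without overlap. Stat2 rose by 1.27 (SE 0.201, edgeR adjusted p = 0.019), and Irf9 rose by 0.48 (SE 0.0983, edgeR adjusted p = 0.035). Irf7 (1.35), Irf5 (0.60) and Irf2 (0.50) also rose, with edgeR adjusted p of 0.025, 0.024 and 0.032. Stat6, with which PARP14 was first linked, was at 351 ± 3.72 and 321 ± 6.03 CPM (log2 fold change 0.13, edgeR adjusted p = 0.28).

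Of the 5 feedback inhibitors of the pathway tested, Socs1 rose (log2 fold change 1.36, SE 0.304, edgeR adjusted p = 0.045) and 0 fell (3 higher and 0 lower at an unadjusted p under 0.05, and 3 higher and 0 lower by DESeq2). Usp18, which blocks the type I receptor, had 1998, 1706 and 2767 counts in KO and 920, 760 and 1500 in WT, and its log2 fold change of 1.08 did not pass (edgeR adjusted p = 0.063). Over all related genes, 10 of 56 were called higher and 0 lower by edgeR (24 higher and 1 lower at an unadjusted p under 0.05, and 18 higher and 0 lower by DESeq2), with a median log2 fold change of 0.20. These counts, and those of the separate lists, stand against 2.25% of all tested genes higher and 2.66% lower by edgeR, 8.65% and 10.2% at an unadjusted p under 0.05, and 4.39% and 5.17% by DESeq2. Members and related genes were compared over the same 6 libraries and share all of them.

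The libraries of a genotype were not alike in the members. WT replicate 3 was the highest WT library for 9 of the 10 members, all but Slfn9, while it was the highest WT library for 35.1% of all tested genes. It exceeded the mean of the other WT libraries by 1.15 for Slfn1, 1.09 for Slfn4 and 0.68 for Slfn5 on the log2 scale, with a median of 0.43 over the members and 0.01 over all tested genes. Without it, the median log2 fold change of the members was 0.91, and that of Slfn4 was 2.43. Within the KO group the order of the libraries differed between members. KO replicate 2 was the highest and KO replicate 3 the lowest for the 4 PARP members and Slfn9. KO replicate 2 was the lowest for Slfn1, Slfn2, Slfn4, Slfn5 and Slfn8. Some of these ranks rest on small differences, as for Parp14 (722 and 723 CPM in KO replicates 1 and 2) and Slfn1 (101 to 105 CPM).

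**Figure D4:**
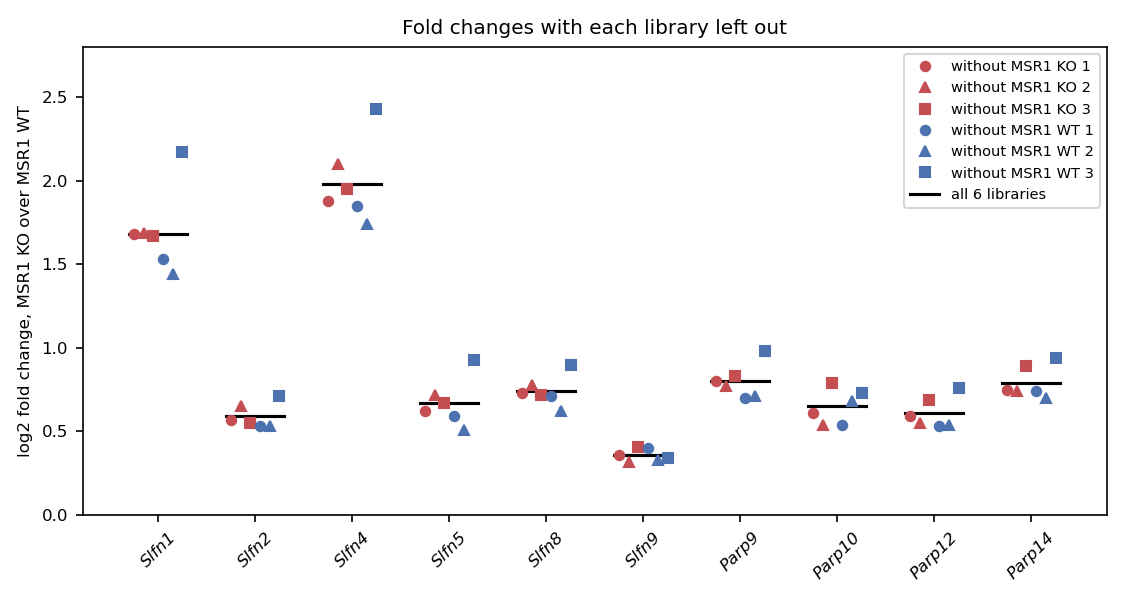
Log2 fold change of each member from all 6 libraries (bar) and with each library left out in turn (points, red for a KO library and blue for a WT library). No point lies at or below 0, and for all members but Slfn9 and Parp10 the highest point is the fit without WT replicate 3, which for Slfn1 gives 2.17 against 1.68 from all libraries.

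The genes whose profile over the 6 libraries was nearest to the mean profile of the members were found by the root mean square difference of log2 CPM after centring each gene on its own mean. The 5 nearest genes outside the members were Dhx58 (0.0461), Znfx1 (0.0654), Mndal (0.0676), Sp100 (0.0733) and Sirpb1a (0.0843). Parp9 (0.0703) was the nearest member and ranked 4th among the 16402 genes, followed by Parp14 (0.102), Slfn8 (0.103) and Slfn5 (0.133). Slfn1 (0.491) and Slfn4 (0.622) were the farthest, with a wider span between the groups than the mean profile. The measure is a description over 6 libraries that the groups themselves separate.

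**Figure D5:**
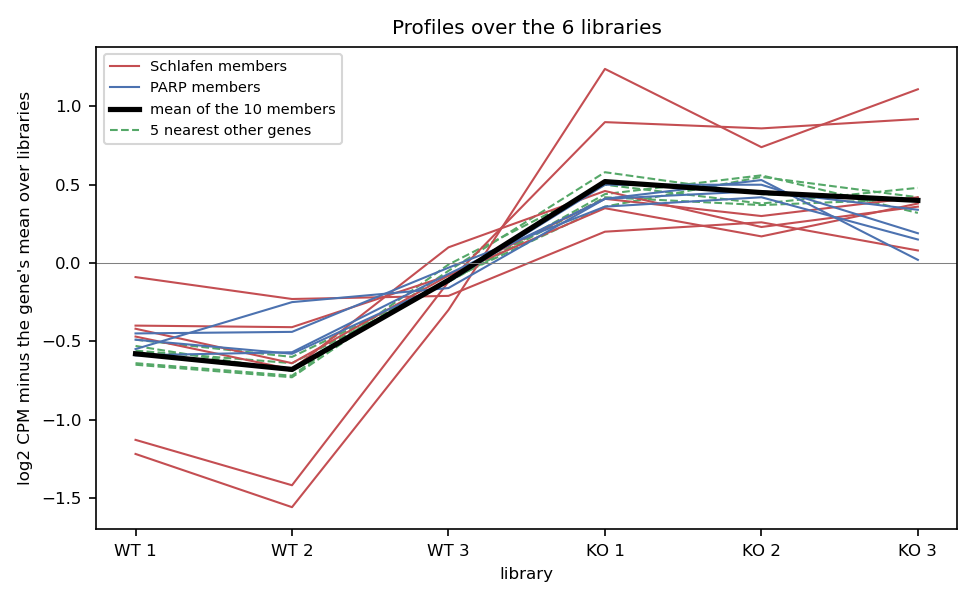
Log2 CPM of each gene minus its own mean, over the 6 libraries, for the Schlafen members (red), the PARP members (blue), the mean of the 10 members (black) and the 5 nearest other genes (dashed green). The mean profile runs from -0.58, -0.68 and -0.11 in WT to 0.52, 0.45 and 0.40 in KO, and the widest lines are Slfn4 and Slfn1.

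Markers of the cell types that the cultures could hold were read beside the members. Macrophage markers summed to 22534 to 23688 CPM in KO and 22845 to 25416 CPM in WT, and 1 of 8 rose, the interferon-inducible Fc receptor gene Fcgr1 (log2 fold change 1.14). The 5 monocyte markers summed to 403 to 485 CPM in KO and 183 to 313 CPM in WT. Of these, 3 of 5 rose, Plac8 (1.89) and Ly6c2 (1.40) among them, with none at 0. Ccr2 (195 to 282 CPM in KO, 128 to 236 CPM in WT, edgeR adjusted p = 0.32) overlapped between the genotypes. So did Cx3cr1 (31.7 to 105 CPM in KO, 16.2 to 65.9 CPM in WT, edgeR adjusted p = 0.34). NK cell markers summed to 19.1 to 24.6 CPM in KO and 6.05 to 14.5 CPM in WT, and 1 of 5, Klrb1c (1.39), rose by edgeR. By DESeq2 3 of the 5 were higher and 0 lower, as they were at an unadjusted p under 0.05 by edgeR. Stromal markers summed to 1110 to 1507 CPM in KO and 1414 to 1744 CPM in WT, and 2 of 10 fell, Pdgfra (-1.19) and Pdgfrb (-0.87), with Col1a1 at 490 CPM in KO and 586 CPM in WT, while DESeq2 called 2 of the 10 higher and 4 lower. The stromal list did not move one way, since each KO library lay above each WT library for Thy1 (6.43 and 2.61 CPM on average, log2 fold change 1.31, edgeR adjusted p = 0.091) and Eng (93.9 and 68.0 CPM, 0.47, edgeR adjusted p = 0.12). Neutrophil markers overlapped between the genotypes for all but Ly6g, with sums of 636 to 1039 CPM in KO and 419 to 799 CPM in WT. Their log2 fold changes were all above 0, from 0.25 to 1.3 (Ly6g), with a median of 0.38. Of the 8, 0 passed edgeR's adjusted threshold (1 higher at an unadjusted p under 0.05, 0 by DESeq2). Plasmacytoid dendritic cell markers summed to 3.57 to 5.37 CPM in KO and 1.36 to 3.32 CPM in WT, and conventional dendritic cell markers to 3.51 to 5.25 and 2.7 to 4.87 CPM. On the conventional list, each KO library lay above each WT library for Xcr1 alone, at 7 to 40 reads a library. Its log2 fold change was 2.04 (0.737 CPM in KO and 0.177 CPM in WT, edgeR adjusted p = 0.06). The part of these cell types in the members' change was not tested. T cell markers summed to 97.3 to 146 CPM in KO and 90.6 to 140 CPM in WT, most of it Cd4 (114 and 116 CPM), and B cell markers to 19.1 to 22.9 and 15.4 to 20.2 CPM, most of it Cd79b (20.6 and 17.0 CPM). Lck (6.31 CPM in KO and 2.32 CPM in WT, log2 fold change 1.45, edgeR adjusted p = 0.11) and Ccr9 (3.78 and 1.17 CPM, 1.69, edgeR adjusted p = 0.1), on the T cell and plasmacytoid dendritic cell lists, had each KO library above each WT library. The B cell gene Cd79a (0.129 CPM in KO and 0.0776 CPM in WT), the T cell gene Cd3e (0.0645 and 0.0927 CPM) and the plasmacytoid dendritic cell gene Siglech (0.268 and 0.458 CPM) were at or near 0 in both genotypes.

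The change of the members was also set beside that of their neighbours. Within 500 kb of the members, 97 other genes were tested, of which 4 rose and 1 fell by edgeR (7 were called by DESeq2, where 9.56% of all tested genes were), and their median log2 fold change was 0.03. On chromosome 11 these were Slfn3 and the chemokine gene Ccl4 (0.70, edgeR adjusted p = 0.015), 2 of 24 genes. On chromosome 15, of 48 genes, the pore-forming protein gene Gsdmd rose (0.51, edgeR adjusted p = 0.032) and the zinc transporter gene Slc39a4 fell by 0.54 on the log2 scale (edgeR adjusted p = 0.022). On chromosome 16 1 of 10 genes was called, Dtx3l.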

How the data were processed

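RNA from 6 macrophage cultures was sequenced after selection of mRNA. The authors deposited raw read counts per gene and library, with a signal column per library (the count divided by a size factor) that was mapped but not tested, and columns of their own fold changes and p-values that were not used. The submitters' processing notes name fastp 0.17.1, HISAT2 2.1.0, DESeq2 1.18.1 and R 3.4.3, whereas the study's methods name TopHat. The read counter, the use of strand and the build are not given in the sources used here. Of 52550 gene identifiers 52403 were in GENCODE M21 (GRCm38), 49909 with the same start and end.

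After filterByExpr and TMM scaling, counts entered the quasi-likelihood test (glmQLFit, glmQLFTest) of edgeR 4.0.16 under R 4.3.3, which had been tested on simulated data. Each SE is the log2 fold change divided by the root of its F statistic. Log2 CPM used a prior count of 2. TPM used merged GENCODE exons. The 12 alternatives included DESeq2 1.42.0, other scalings and filters, a replicate block and each library left out. The members and gene lists were chosen with earlier results of these data known. Named were all members, Msr1, up to 5 called and 3 abundant genes of each related list, called neighbours and the 5 nearest profiles. Genes outside this rule (Slfn10-ps, Slfn14, Slfnl1 and Slfn5os, further related genes and the markers) were named after their values were seen. Some genes of the related and marker lists are counted but not reported here.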

Additional observations from a re-analysis of the deposited data

How the results depend on the processing

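Every member kept its direction and had no overlap between the groups in all 12 alternatives, and 72 of 120 member values kept their side of the adjusted threshold, 43 lost it and 5 gained it. Of the 10 members, 8 rose with all libraries by edgeR, 10 with DESeq2 and 6 to 9 under the other scalings and filters, where 0.947% to 2.9% of all tested genes rose. With the replicate block, 4 members, 1 related gene and 0 neighbours were called (10, 20 and 13 at an unadjusted p under 0.05), where 0.36% of all tested genes rose (7.89% at an unadjusted p). Deviations of same-numbered libraries had correlations of -0.026, 0.019 and -0.005, against -0.034 to 0.037 for the other pairs. These values show no general pairing by number, but they cannot exclude one for some genes. Slfn5os was highest in replicate 1 of both genotypes, and whether same-numbered libraries were prepared together was not tested. DESeq2 called 18 related genes higher, beside 10. With each library left out in turn, members called ranged from 0 to 8, related genes from 0 to 10 and neighbours from 0 to 7, beside 8, 10 and 5 (10, at least 20 and at least 10 at an unadjusted p under 0.05). By the study's definition 6 to 9 members were higher, and the median log2 fold change ranged from 0.65 to 0.91. The share of all tested genes higher by that definition is given for the main edgeR fit alone (3.59%). The fits without a library have 5 libraries and fewer degrees of freedom. Depth did not limit the members, whose lowest count was 565, whereas the interferon genes had too few reads for a test at this depth.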
